A study of Homo sapiens with 4 samples.

Results

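Matricellular proteins are secreted proteins of the extracellular matrix that mostly tune how cells adhere, move and respond to growth factors, rather than bear load. The genes described here were periostin (POSTN), TGFBI, SPARC, SPARCL1, THBS1, THBS2, TNC, FN1, SPP1 and FBLN1, taken by symbol from the table of read counts, 10 of 61806 genes. FN1, fibronectin, is a structural glycoprotein that several of the others bind, and is kept with them. The genes were chosen by symbol with their CPM and their difference between the vectors already known, so those values are given as a description and test nothing.

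The cells were U251-MG, an established human glioma line labelled wild type and grown in DMEM with 10% fetal bovine serum. All were infected with a lentivirus made from the vector pCDH-CMV-MCS-EF1-puro, in which a CMV promoter drives the insert. The COL8A1 group carried the coding sequence of COL8A1, a chain of the network-forming collagen VIII, and the NC group carried the negative control vector. Total RNA was sequenced in 2 libraries per group. Whether the cells were pools or clones is not given in the sources used here, nor whether replicate libraries stem from separate cultures. Any p-value therefore rests on a spread that may be only technical.

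In brain tumours the matricellular genes are known as products of both tumour cells and stroma. Tenascin-C (TNC) and osteopontin (SPP1) are typical of malignant glioma, and periostin and TGFBI are related proteins with repeated fasciclin domains whose genes are classically induced by TGF-beta. Many of these proteins act through integrins such as αvβ3 and αvβ5, and thrombospondin-1 (THBS1) also binds CD47 and can activate latent TGF-beta.

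The libraries held 27923796 to 33576228 counts, and the 10 genes together took 0.290% (replicate 1) and 0.294% (replicate 2) of the NC counts and 0.330% and 0.315% of the COL8A1 counts. COL8A1 itself was at 2.51 and 2.43 CPM (counts scaled to the library size, here with TMM factors) in the NC libraries and at 135 and 81.3 CPM in the COL8A1 libraries, in the direction of the labels. Of the 9 glioma and astroglial markers, 8 were higher and 1 lower in COL8A1 cells (median log2 fold change 0.18), with groups apart and higher in 4, and they summed to 4274 to 4762 CPM in NC and 4485 to 5136 CPM in COL8A1 libraries. In edgeR 0 of them passed after adjustment, 3 were higher at an unadjusted p under 0.05 (GFAP, log2 fold change 1.63, the lipid-binding FABP7, 0.51, and the transcription factor SOX9, 0.24), and DESeq2 called 0. Of all 17030 genes tested in edgeR, 50.2% stood higher, 18.9% were higher without overlap and 3.44% were higher at an unadjusted p under 0.05. Vimentin (VIM) was at 2818 ± 316 CPM in NC and 2920.2 ± 313 in COL8A1 cells (SD, n = 2 each), while GFAP, the classical astrocyte filament, was near absent at 0.624 ± 0.0855 and 1.94 ± 0.147 CPM. Fibroblasts and pericytes also make several of these proteins. Of the 6 fibroblast markers 5 were higher and 1 lower in COL8A1 cells (median log2 fold change 0.17), with groups apart and higher in 2. In edgeR 0 of the 6 passed after adjustment and 1 was higher at an unadjusted p under 0.05, and DESeq2 called 0. The 1 gene was FAP, at 0.281 ± 0.0627 CPM in NC and 0.748 ± 0.142 in COL8A1 cells (log2 fold change 1.40). The fibroblast collagen genes COL1A1 and COL3A1 were at 2.09 ± 0.864 and 0.810 ± 0.559 CPM in NC and at 2.23 ± 0.403 and 0.555 ± 0.029 CPM in COL8A1 cells. The 6 fibroblast markers summed to 468 to 499.7 CPM in NC and 519 to 714 CPM in COL8A1 libraries, almost all of it PDGFRA, which glioma cells also express, at 479 ± 23.7 and 611 ± 137 CPM. The summed levels were 12.1 to 13.5 and 12.9 to 12.99 CPM for pericyte markers, 4.76 to 5.66 and 3.61 to 4.64 for microglia and macrophage markers (4 of 9 at 0 in every library), 71.5 to 71.9 and 67.8 to 85.8 for endothelial markers, 34.1 to 35.3 and 29.3 to 32.3 for neuron markers and 0.0593 to 0.456 and 0.283 to 0.540 for oligodendrocyte markers (3 of 5 at 0 in every library), in NC and COL8A1 libraries respectively. Most of the endothelial sum was CDH5 (62.6 ± 0.164 CPM in NC and 69.1 ± 12.8 in COL8A1 cells). Most of the neuron sum was SYT1 (28.2 ± 0.683 and 23.8 ± 3.57 CPM). The part of all these markers in the differences below was not tested. In bulk RNA, a change in the number of cells that express a gene and in the RNA per cell cannot be told apart.

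Levels were first compared between the 10 genes as TPM, which scales counts by gene length as well as by library. TNC, the hexameric glycoprotein of glioma and developing matrix, stood highest, with 522 and 532 TPM in the NC libraries and 590.1 and 540.5 TPM in the COL8A1 libraries (replicate 1 first, here and below). Its mean exceeded that of 99.3% of the genes with a count, and its reads were 0.149% of all counts. SPP1 followed at 341 to 362 TPM and SPARC, a collagen-binding glycoprotein, at 227 to 290.2 TPM, and these 3 genes kept this order in every library. THBS1, at 109.5 to 139 TPM, and TGFBI, at 97.6 to 137.5 TPM, overlapped. So did POSTN, at 46.4 to 81.3 TPM, and FBLN1 (fibulin-1, of basement membranes and elastic fibres), at 53.9 to 72.4 TPM. FN1 was the lowest of the 8 well-expressed genes, at 36.3 to 45.2 TPM. Lengths were unions of all annotated exons, and with the longest transcript in their place the mean levels were 150 TPM for TGFBI, 122 for FBLN1, 112 for THBS1 and 80.1 for POSTN, so that the order among these 4 depended on the length used.

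**Figure D1:**
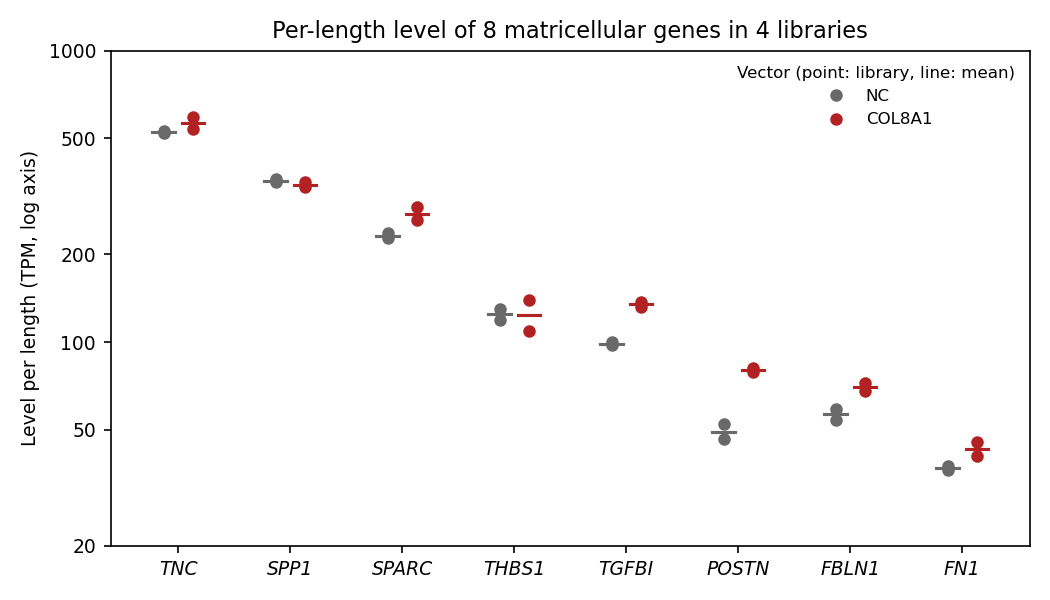
Level per length (TPM, log axis) of the 8 matricellular genes with enough reads to be tested, in NC (grey) and COL8A1 (red) libraries, with each library as a point and the group mean as a line. TNC lies above SPP1 and SPARC in every library and FN1 lies lowest, between 36.3 and 45.2 TPM, while SPARCL1 and THBS2, at 0.220 TPM or less, are not drawn.

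The other 2 genes were all but silent. SPARCL1 (hevin), a SPARC relative made by astrocytes, had 4, 6, 5 and 6 counts in the 2 NC and then the 2 COL8A1 libraries, and THBS2 (thrombospondin-2), an inhibitor of angiogenesis, had 0, 4, 4 and 0. A library with 0 counts allows up to 3 counts, or 0.0893 to 0.107 CPM, counting error only. Both fell below the low-count filter and no difference between the vectors could be detected at this depth. The contrast within each family was large: the mean over all libraries was 254 TPM for SPARC and 0.173 for SPARCL1, and 124 TPM for THBS1 and 0.0337 for THBS2. On chromosome 4, SPARCL1 (87473335 to 87531061, minus strand) and SPP1 (87975650 to 87983426, plus strand) mark the ends of a stretch of 510 kb that also holds DMP1, IBSP and MEPE, genes of mineralised tissue proteins (GENCODE release 29, hg38). DMP1, IBSP and MEPE had 0 counts in all 4 libraries, which allows up to 0.0242 CPM over the 124000602 counts, so of these 5 neighbours SPP1 was the one with a substantial level.

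The main question of the study design was what differed between the vectors. With the COL8A1 vector, 6 of the 8 tested genes stood higher and 2 lower. Their median log2 fold change was 0.21. Over all 17030 genes tested, 50.2% stood higher and the median was 0.00107. The groups did not overlap for the 6 higher genes and for 1 of the lower ones, where 18.9% of all genes tested were higher and 18.6% lower without overlap. In edgeR's quasi-likelihood test with Benjamini-Hochberg adjustment, 0 of the 8 passed, beside 2 of all genes tested (0.0117%), both lower in COL8A1 cells. COL8A1 itself, 43.7-fold higher, missed this threshold too, with an edgeR adjusted p of 0.0681. An unadjusted p under 0.05 was found for 4, POSTN, TGFBI, FBLN1 and SPARC, all higher, beside 3.44% of all genes tested higher and 2.63% lower. DESeq2 called 2 of the 10, POSTN and TGFBI, beside 0.732% of its genes. The genes were picked with this contrast known, so these counts carry no weight as evidence. For a single gene, an exact permutation test of 2 against 2 libraries cannot give a two-sided p below 0.333.

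POSTN (ENSG00000133110; chromosome 13, 37562583 to 37598844, minus strand) encodes periostin, which binds integrins and helps to cross-link collagen. The NC libraries held 2487 and 2438 of its reads and the COL8A1 libraries 3829 and 3490. These were 81.0 and 72.3 CPM against 120.4 and 126 CPM, so both COL8A1 libraries lay well above both NC libraries. The group means were 76.7 ± 6.19 and 123 ± 3.68 CPM (SD, n = 2 each), a 1.60-fold difference and the largest among the 8. The log2 fold change was 0.68, and ranged from 0.60 to 0.77 with each library left out in turn.

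TGFBI (ENSG00000120708; chromosome 5, 136028895 to 136063818, plus strand) encodes a TGF-beta-induced protein that binds collagens and integrins and shares its fasciclin domains with periostin. It had 6655, 7504, 9556 and 8097 counts, or 217 and 222 CPM in the NC libraries and 300.4 and 291 CPM in the COL8A1 libraries. The replicates of each group lay close together and the groups were far apart. The means were 219.6 ± 3.98 and 296 ± 6.42 CPM (SD, n = 2 each), a 1.35-fold difference, with a log2 fold change of 0.43 that ranged from 0.41 to 0.45 with each library left out.

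POSTN and TGFBI differed most between the vectors. THBS1 had the log2 fold change nearest 0, −0.02, but its COL8A1 libraries lay apart, at 281 and 360.1 CPM. The 250 bases before the starts of POSTN, TGFBI and THBS1 are printed for that contrast, from RefSeq on GRCh38.p14, 5′ to 3′ on the strand of the gene. Capitals mark matches on either strand to TATAAA, the box near many starts that binds TBP, and to TGANTCA of AP-1, GGAATG of TEAD factors, CAGAC of SMAD factors, GGGCGG of the GC box and the CCAAT box. The windows are chr13:37598769-37599018 for POSTN, chr5:136028738-136028987 for TGFBI and chr15:39580829-39581078 for THBS1. Positions count from the RefSeq start. For POSTN and TGFBI it differs from the gene end or start given above, and their windows reach into those gene spans.
POSTN: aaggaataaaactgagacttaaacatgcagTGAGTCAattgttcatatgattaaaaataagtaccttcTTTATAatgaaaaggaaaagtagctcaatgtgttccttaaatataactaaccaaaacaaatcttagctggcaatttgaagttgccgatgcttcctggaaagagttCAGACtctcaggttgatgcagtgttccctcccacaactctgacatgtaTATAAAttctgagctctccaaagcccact
TGFBI: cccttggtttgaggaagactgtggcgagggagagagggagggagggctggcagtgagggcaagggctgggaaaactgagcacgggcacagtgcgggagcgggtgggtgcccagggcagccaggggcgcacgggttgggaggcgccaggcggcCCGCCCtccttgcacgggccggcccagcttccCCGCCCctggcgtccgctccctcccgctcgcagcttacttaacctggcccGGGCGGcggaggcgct
THBS1: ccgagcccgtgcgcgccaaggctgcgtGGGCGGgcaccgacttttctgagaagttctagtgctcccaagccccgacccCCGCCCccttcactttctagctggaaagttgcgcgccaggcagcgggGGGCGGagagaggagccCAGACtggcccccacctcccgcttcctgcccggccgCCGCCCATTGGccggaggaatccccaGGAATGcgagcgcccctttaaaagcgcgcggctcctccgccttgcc
The related genes POSTN and TGFBI had unlike starts. The POSTN window was 36.4% G and C, with TATAAA at −29 from the start and on the other strand at −182, TGAGTCA at −220 and CAGAC at −77. The TGFBI window was 72.8% G and C and matched GGGCGG alone, at 3 places. In THBS1, GGAATG lay at −46, CAGAC at −108, CCAAT on the other strand at −66 and GGGCGG on either strand at 4 places, and no match overlapped one of another motif in these 3 windows.

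All 10 genes had an entry in that table. TGANTCA was found in 1 of the 10 windows, POSTN's, and in 6.57% of the 35116 windows of the same length. TATAAA was in 3 (POSTN, SPARCL1 and THBS2), beside 10.7% of all windows, and GGAATG in 3 (SPARC, THBS1 and THBS2), beside 11.9%. CAGAC was in 6, beside 38.0%, GGGCGG in 5, beside 42.6%, and CCAAT in 3, beside 32.0%. Of the 3 windows with TATAAA, 2 belonged to the near-silent genes. A match is a stretch of letters and shows no binding.

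FBLN1, SPARC and FN1 came next. FBLN1 (ENSG00000077942; chromosome 22, 45502238 to 45601135, plus strand) was at 122 and 112 CPM in the NC libraries and 147 and 139 CPM in the COL8A1 libraries. The means were 117 ± 7.11 and 143 ± 5.71 CPM (SD, n = 2 each), with a log2 fold change of 0.29, from 0.23 to 0.36 with each library left out. SPARC (ENSG00000113140; chromosome 5, 151661096 to 151687165, minus strand) was at 312 and 327 CPM in NC and at 392 and 357 CPM in COL8A1 libraries. Its means of 319 ± 10.6 and 375 ± 24.7 CPM gave a log2 fold change of 0.23 (0.16 to 0.29). FN1 (ENSG00000115414; chromosome 2, 215360440 to 215436172, minus strand) was at 179 and 185 CPM in NC and at 219 and 198 CPM in COL8A1 libraries, with means of 182 ± 4.56 and 208.7 ± 14.5 CPM and a log2 fold change of 0.20 (0.13 to 0.26). In these 3 genes the groups did not overlap, and the difference between the group means of log2 CPM was larger than that between the replicates of either group. Such a larger difference was found in 6 of the 8 tested genes, POSTN, TGFBI and SPP1 among them, and in 4209 of all 17030 genes tested.

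TNC, THBS1 and SPP1 differed least. TNC (ENSG00000041982; chromosome 9, 115019578 to 115118257, minus strand) was at 1429 and 1462 CPM in NC and at 1591 and 1472 CPM in the COL8A1 libraries. The upper NC and the lower COL8A1 library nearly met, and the means of 1446 ± 23.2 and 1531 ± 84.1 CPM gave a log2 fold change of 0.08 (0.03 to 0.13). THBS1 (ENSG00000137801; chromosome 15, 39581079 to 39599466, plus strand) was at 338 and 312 CPM in NC and at 281 and 360.1 CPM in the COL8A1 libraries, so that the COL8A1 libraries lay on either side of both NC libraries. Its log2 fold change was −0.02, with values from −0.21 without COL8A1 replicate 2 to 0.15 without COL8A1 replicate 1. SPP1 (ENSG00000118785) was at 239 and 234 CPM in NC and 229 and 223 CPM in COL8A1 libraries. The groups of SPP1 did not overlap, but their means, 237 ± 3.08 and 226 ± 4.25 CPM (SD, n = 2 each), were close, with a log2 fold change of −0.06 (−0.08 to −0.05).

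**Figure D2:**
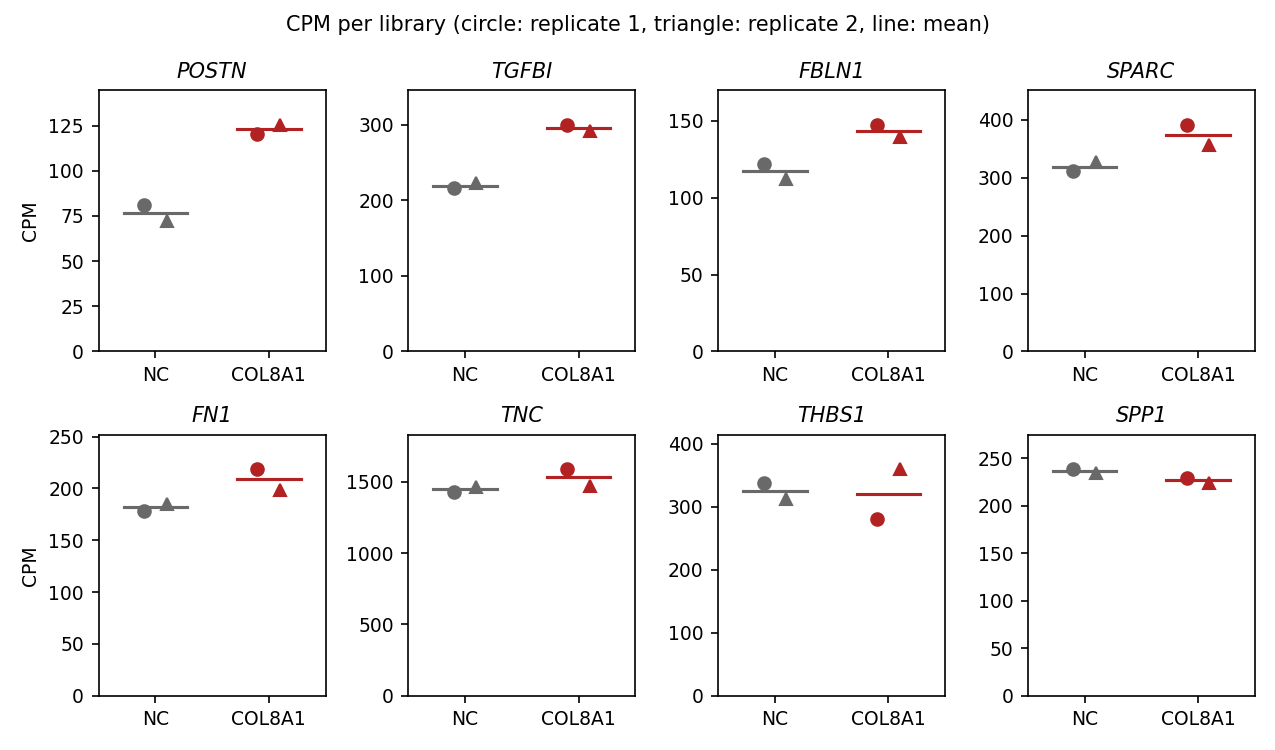
CPM of the 8 tested matricellular genes in each library, on axes from 0, with replicate 1 as a circle, replicate 2 as a triangle and the group mean as a line. POSTN and TGFBI show a clear step between NC and COL8A1 libraries, and in THBS1 the COL8A1 libraries, at 281 and 360.1 CPM, enclose the NC libraries.

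The COL8A1 libraries also differed from each other. COL8A1 replicate 1, with 135 CPM of COL8A1, had the higher level in 6 of the 8 tested genes, and replicate 2, with 81.3 CPM, in POSTN and THBS1. The same count over all genes tested was not made, so 6 of 8 says nothing particular to these genes. The replicate difference was largest in THBS1, where replicate 2 exceeded replicate 1 by 0.36 on the log2 scale of CPM, and was 0.06 in POSTN. Between the NC replicates, 4 of the 8 genes were higher in replicate 1. With 2 libraries, no relation to the COL8A1 level can be tested.

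**Figure D3:**
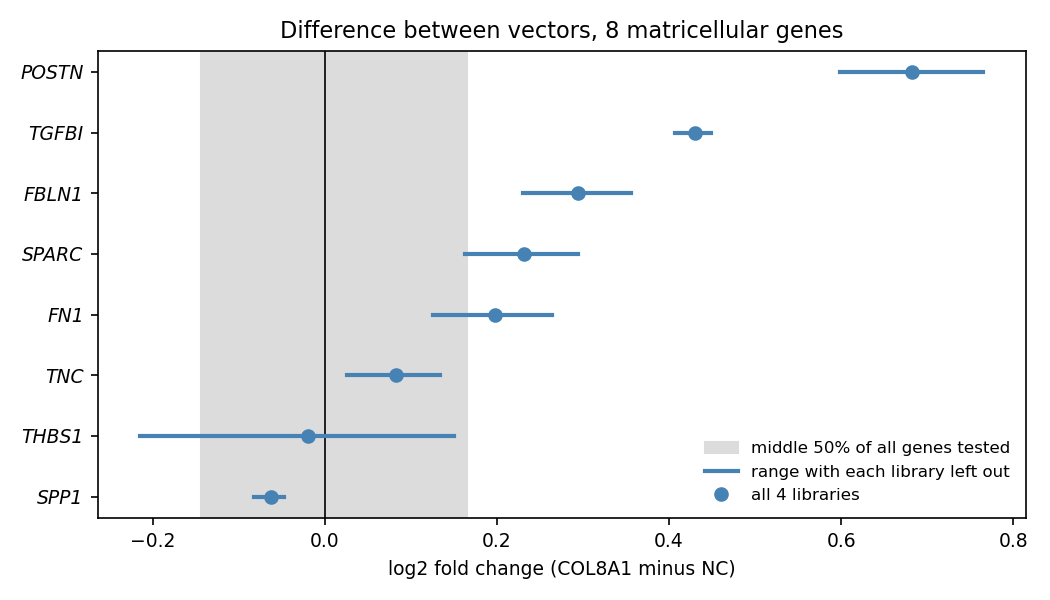
Log2 fold change of CPM (COL8A1 minus NC) of the 8 tested genes with all 4 libraries (point) and its range with each library left out in turn (bar), over the middle 50% of all 17030 genes tested (grey band, −0.14 to 0.17). POSTN, TGFBI and FBLN1 keep clear of the band in every setting shown, TNC and SPP1 lie within it, and the bar of THBS1 crosses 0.

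Reads of neighbours on the opposite strand could enter these counts, since the strand setting is not given. THBS1 shares exon bases with FSIP1 (29 to 65 counts per library) and THBS1-AS1 (0 to 6), TNC with DELEC1 (37 to 45), and SPARC with CLMAT3 (0 in all). These are small beside the 8924 to 10508 counts of THBS1 and 40906 to 49320 of TNC.

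Among the genes whose pattern over the 4 libraries was most like that of POSTN, by Euclidean distance of log2 CPM deviations from the gene mean over 8006 other genes with a mean of at least 20 CPM, were SAMHD1 (distance 0.081) and DGCR6L (0.089). Those nearest to TGFBI were WDR91 (0.031), CREG1 (0.039) and ATP6V0A1 (0.041). Over 4 libraries such likeness mostly restates the step between the vectors. TGFBI itself was not among the 3 nearest to POSTN.

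Other genes of the matricellular families were mostly near 0 or alike in both groups. Of 27 listed, 15 could be tested, with 8 higher and 7 lower and a median log2 fold change of 0.03. In edgeR 0 passed after adjustment, and DESeq2 called 0. At an unadjusted edgeR p under 0.05, 1 was higher and 0 lower, beside 3.44% and 2.63% of all genes tested. The most abundant were SPOCK1 (testican-1, a SPARC relative; 315 ± 24.8 CPM in NC and 305 ± 22.2 in COL8A1), EFEMP1 (fibulin-3; 285 ± 40.4 and 290.4 ± 4.38), FSTL1 (a secreted SPARC-related glycoprotein; 171 and 168 in NC and 209 and 239 in the COL8A1 libraries) and CCN1 (an integrin ligand; 141 ± 0.476 and 136 ± 5.22; SD, n = 2 each). FSTL1 was the gene with an unadjusted p under 0.05 (log2 fold change 0.40, edgeR adjusted p = 0.580). Besides DMP1, IBSP and MEPE, TNR and CCN6 had 0 counts in every library.

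Receptors of these proteins were split evenly between the directions. Of 20 listed 16 were tested, 8 higher and 8 lower, with a median of 0.00239. In edgeR 0 passed after adjustment, 3 had an unadjusted p under 0.05, all higher (the integrin chains ITGB3, ITGB5 and ITGA4), and DESeq2 called 0. Over all genes tested, 3.44% were higher and 2.63% lower at that unadjusted p. The β3 chain ITGB3 was scarce, at 1.57 ± 0.00513 and 3.22 ± 0.235 CPM (log2 fold change 1.03, edgeR adjusted p = 0.653), and ITGB5, of the αvβ5 integrin, was at 231 ± 11.9 and 264 ± 6.16 CPM (0.19, adjusted p = 0.804). ITGA4 was at 8.15 ± 0.466 and 11.9 ± 0.114 CPM. Among the 4 most abundant, the laminin-binding integrin chain ITGA3 was at 1307 ± 20.2 and 1208 ± 24.7 CPM, ITGB1, the partner of many α chains, at 514 ± 7.56 and 486 ± 45.6, and CD44, which binds hyaluronan and osteopontin, at 440.4 ± 63.7 and 482.5 ± 0.460 (SD, n = 2 each). ITGAV, the αv chain shared by the periostin and osteopontin receptors, was at 579 and 571 CPM in NC and at 296 and 575 CPM in the COL8A1 libraries, a log2 fold change of −0.40 in which COL8A1 replicate 1 alone was low.

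Genes of TGF-beta signalling, the textbook inducer of TGFBI and POSTN, were listed as ligands, receptors, SMADs, latency proteins and targets. Each was read singly from the fit over all genes, and the list was not tested as a set. Of 22 listed 21 were tested, 13 higher and 8 lower, with a median of 0.07. In edgeR 0 passed after adjustment, 2 had an unadjusted p under 0.05 (LTBP1 and PMEPA1, both higher), and DESeq2 called 0. Over all genes tested, 3.44% were higher and 2.63% lower at that unadjusted p. PMEPA1, a feedback target of the pathway, was at 608 ± 9.12 CPM in NC and 693 ± 14.4 in COL8A1 cells (log2 fold change 0.19, edgeR adjusted p = 0.672; n = 2 each), and LTBP1, which tethers latent TGF-beta to the matrix, at 62.0 ± 1.72 and 77.1 ± 1.13 CPM (0.31, adjusted p = 0.658). The receptor TGFBR2 was at 136 ± 4.63 and 148 ± 2.32 CPM, the ligand TGFB2 at 116 ± 9.73 and 111 ± 9.58, and LTBP4 at 88.0 ± 0.122 and 83.3 ± 13.2. SMAD7, an early target and inhibitor of the pathway, was at 2.12 ± 0.646 and 2.55 ± 0.706 CPM, with overlapping groups, and was named after its values were seen.

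Proteases and enzymes that cut, cross-link or phosphorylate matricellular proteins went both ways. Of 17 listed 14 were tested, 8 higher and 6 lower, with a median of 0.04. In edgeR 0 passed after adjustment, and at an unadjusted p under 0.05 there were 1 higher (MMP2) and 2 lower (MMP7 and PLAT). Over all genes tested, 3.44% were higher and 2.63% lower at that unadjusted p. MMP2, a gelatinase, was at 253 and 245 CPM in NC and at 443 and 341 CPM in the COL8A1 libraries. The groups did not overlap, and its log2 fold change was 0.65 (edgeR adjusted p = 0.580, DESeq2 adjusted p = 0.0105), the 1 call of DESeq2 in this list. MMP7 (matrilysin), which cuts osteopontin, was at 8.49 ± 0.808 and 4.57 ± 0.110 CPM (−0.89, edgeR adjusted p = 0.572), and PLAT, a plasminogen activator, at 28.7 ± 2.06 and 19.7 ± 3.73 (−0.54, adjusted p = 0.745). FURIN (154 ± 7.64 and 154 ± 20.5 CPM), PLAU (112 ± 6.25 and 108 ± 19.1) and ADAMTS4 (51.7 ± 1.19 and 48.1 ± 0.482) were the other abundant ones.

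**Figure D4:**
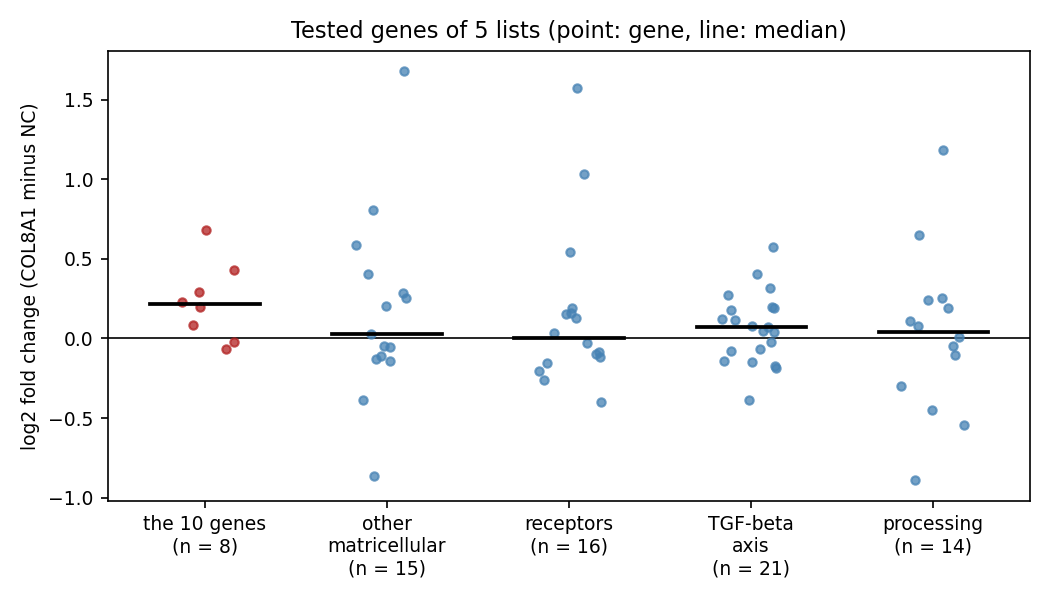
Log2 fold changes (COL8A1 minus NC) of the tested genes of the 10-gene set and of 4 related lists, 1 point per gene with the list median as a line. The median is 0.21 for the 8 tested genes of the set, which were chosen with this contrast known, and between 0.00239 and 0.07 for the other lists, each of which has genes on both sides of 0.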

How the data were processed

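RNA of 4 U251-MG libraries was compared. The authors deposited unnormalized read counts for each gene. The submitters' processing notes name hg38 as the build and, as tools, featureCounts 0.3 (so listed), HISAT2 2.2.1 and Trim Galore 0.6.9. The strand setting is not given in the sources used here, nor is the annotation release. The table held 61806 genes and 1 further line that named no gene and was left out. The tools named include no separate one for removing PCR copies, which may therefore be counted as separate reads.

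edgeR 4.0.16 in R 4.3.3 was run on all genes (filterByExpr, TMM factors, quasi-likelihood F-test on the vector alone, 17030 genes tested, 2 residual degrees of freedom), with Benjamini-Hochberg adjustment over all genes and a threshold of 0.05. The fits were tested on simulated data, in which the planted differences were larger than those of the 8 tested genes. CPM used TMM-scaled library sizes. TPM used exon-union lengths of GENCODE release 29, same build, for 58254 genes (99.8% of counts). log2 CPM used a prior count of 2.

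The genes and lists were chosen with earlier results of these data known. Named from each of the 4 related lists (other matricellular genes, receptors, TGF-beta axis, processing) were the 4 genes of highest mean CPM and any called by edgeR or DESeq2. Those with an unadjusted p under 0.05 were added after their values were seen. There were also 7 lists of cell type markers, in which the 2 lines of the pericyte gene RGS5 both counted. Alternatives were other scaling, filters, DESeq2 1.42.0, limma-voom 3.58.1, a replicate block, overlapping genes summed, each library left out, and another gene length. Replicates differed by more than sampling noise (mean chi-square per gene 31.1 in NC and 33.8 in COL8A1). For 1 gene that the rule on likeness of pattern names, no value is reported here.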

Additional observations from a re-analysis of the deposited data

How the results depend on the processing

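Of the 104 alternative log2 fold changes of the 8 tested genes, 101 moved by no more than 1 SD of the replicates and kept their sign. The other 3 were of THBS1: 0.04 without NC replicate 1, 0.15 without COL8A1 replicate 1 and −0.21 without COL8A1 replicate 2, against −0.02. The count of the 8 genes higher in COL8A1 cells was 6 with all libraries and 6 to 7 with each library left out. The 2 edgeR calls over all genes became 17 without a low-count filter and 144 in DESeq2, and 0 to 3 with each library left out (0 without COL8A1 replicate 1, 1 without NC replicate 1). DESeq2 called 2 of the 10 matricellular genes and 1 processing gene, where edgeR called 0 and 0. With the replicate number as a block the calls over all genes were 1 and those among the 10 genes 0. Same-numbered libraries did not deviate together (correlation −0.04 across genes). With 2 libraries a group this cannot settle whether the numbers pair the samples, which is not given in the sources used here. With the longest transcript as length, 6 of the 10 genes kept their rank by level. The causes were not tested. With 2 libraries a group, differences near the size of the replicate spread could not be detected.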
